A study of Homo sapiens with 24 samples.

Results

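MHC class I antigen presentation is described here through 9 genes, taken by name from 25365 gene rows. They are the class I heavy chains HLA-B, HLA-C, HLA-E and HLA-F, the light chain B2M, the peptide transporter TAP1 and TAP2, the loading factor TAPBP and the transactivator NLRC5. Values above 0 were found for 2 of them, B2M and NLRC5. The other 7 were listed at 0 in every library. Messenger RNA was measured in PC9 and HCC4006, established lung adenocarcinoma lines that depend on a mutant EGFR. The 8 groups were YAP1 KO cells under OT, YAP1 KO cells under DMSO, CTRL cells under OT and CTRL cells under DMSO of HCC4006, and the same 4 of PC9. OT combines 100 nM of osimertinib, an EGFR inhibitor, with 30 nM of trametinib, a MEK inhibitor. DMSO is the solvent, and each was given for 24 hours. Each group had 3 replicates and each replicate gave 1 library, 24 in all. The table has 1 YAP1 KO population per line, and the sources used here do not say whether it is 1 clone. No label says that the replicates were independent cultures, so p-values measure the spread between replicate libraries. YAP1 is a transcriptional coactivator held in check by the Hippo pathway, and the series asks what its loss does to the response of these cells to both inhibitors.

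YAP1 itself lay between 5.97 and 6.34 FPKM in HCC4006 YAP1 KO cells under OT, against 13.9 to 16.9 FPKM in HCC4006 CTRL cells under OT, and between 3.90 and 4.59 FPKM in YAP1 KO cells under DMSO, against 16.5 to 19.7 FPKM in CTRL cells under DMSO. In PC9 it lay between 10.1 and 11.6 FPKM in YAP1 KO cells under OT, against 33.8 to 34.5 FPKM in CTRL cells under OT, and between 11.6 and 12.4 FPKM in YAP1 KO cells under DMSO, against 42.5 to 43.3 FPKM in CTRL cells under DMSO. It was thus lower in YAP1 KO cells, as labelled, but was still detected.

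Class I molecules carry peptides from inside the cell to its surface, where CD8+ T cells read them. A heavy chain folds with the light chain, beta-2 microglobulin, in the endoplasmic reticulum. TAP1 and TAP2 form the pump that brings in peptides cut by the proteasome, tapasin (TAPBP) holds the empty molecule at that pump, and aminopeptidases trim the peptides. Interferons raise many of these genes through STAT and IRF factors, which bind elements rich in GAAA in their promoters. NLRC5 does not bind DNA itself. It acts at class I promoters with RFX, CREB/ATF and NF-Y factors. In tumour cells, loss of B2M or of the TAP pump lowers or removes class I at the surface.

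Promoters are shown because elements of this kind are known in them, and that of B2M, the abundant gene of the set, is shown in full. Sequences are from RefSeq on GRCh38.p14, and 7 of the 9 genes matched a promoter window of 250 bases before to 50 bases after the start (HLA-E and NLRC5 are named only). The searched letters were GAAANNGAAA for an interferon element, GAANNGAAA for a shortened form of it, TGACG for a CREB/ATF half-site and CCAAT for an NF-Y box, each on both strands. The B2M sequence is chr15:44711267-44711516 on the plus strand, the 250 bases that end just before the gene. Capitals mark, in this order, 2 overlapping interferon elements that span 144 to 129 bases before the start, the half-site and the NF-Y box, which reads ATTGG on this strand.
B2M: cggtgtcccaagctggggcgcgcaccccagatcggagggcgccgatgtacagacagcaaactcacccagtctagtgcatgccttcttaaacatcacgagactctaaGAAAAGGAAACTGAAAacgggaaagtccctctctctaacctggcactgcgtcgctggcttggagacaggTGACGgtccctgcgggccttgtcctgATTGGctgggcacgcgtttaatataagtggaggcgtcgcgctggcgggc

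Stretches of 30 bases around the interferon element are shown for the 4 chromosome 6 members that hold one. They are shown also for PSMB10, PSME1 and PSME2, proteasome genes of the same pathway whose values are given further on. Each is written 5′ to 3′ on the strand of its gene, and capitals mark the first element, or its reverse complement. TAP1 and TAPBP each hold 2 overlapping elements within these bases, and only the first is in capitals. HLA-F lies at chr6:29723268-29723297 and PSME1 at chr14:24136189-24136218, both on the plus strand. TAP1 lies at chr6:32853819-32853848, TAP2 at chr6:32838778-32838807, TAPBP at chr6:33314079-33314108, PSMB10 at chr16:67936852-67936881 and PSME2 at chr14:24146619-24146648, all on the minus strand.
HLA-F: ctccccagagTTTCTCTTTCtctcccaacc
TAP1: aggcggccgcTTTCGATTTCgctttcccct
TAP2: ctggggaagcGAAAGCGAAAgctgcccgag
TAPBP: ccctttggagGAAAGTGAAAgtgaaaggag
PSMB10: gggtaaaggcGAAAGCGAAAgcaggaagta
PSME1: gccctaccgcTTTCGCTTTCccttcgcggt
PSME2: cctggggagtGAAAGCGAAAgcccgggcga

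The interferon element was found in 5 of the 7 genes with a window (HLA-F, B2M, TAP1, TAP2 and TAPBP). It was found in 3.57% of all 35116 promoter windows of that length, and 4.38% of the 27305 genes in the table had it in at least 1 window, the share used for the other motifs too. Its shortened form was found in HLA-B, HLA-C and TAP2, against 9.31% of all genes, and in TAP2 it overlaps the full element. A half-site was present in 4 of the 7 (HLA-B, HLA-C, B2M and TAP2), against 28.4% of all genes. The NF-Y box was present in 5 of the 7 (HLA-B, HLA-C, HLA-F, B2M and TAP1), against 39.7%. These matches describe letters in a window and are not shown to be bound in these cells. TAP1 has 2 windows in the table, of which 1 holds the interferon element.

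The heavy chains HLA-B, HLA-C, HLA-E and HLA-F, the TAP1 and TAP2 pump and TAPBP were listed at exactly 0 FPKM in 24 of 24 libraries. FPKM, the unit of the deposited table, counts fragments per transcript length and scales them by a library's mapped fragments. The zeros were not particular to these 7 genes. RefSeq's gene order on GRCh38.p14 was used only to see which genes neighbour each other. All 7 lie between ZSCAN12 and BAK1 on chromosome 6, the nearest genes on either side with a mean FPKM of at least 1. Of 159 protein-coding rows in that stretch, 156 were at 0 in every library (98.1%), against 63 of 730 on the rest of the chromosome (8.63%). The rows at 0 include RPS18, a protein of the small ribosomal subunit, and TUBB, a tubulin, which every cell uses. ZSCAN23, HLA-DRB5 and HLA-DQA1 were the 3 rows of the stretch above 0, with highest values of 0.633, 1.32 and 0.124 FPKM, and the class II genes among them have near copies with which reads can be shared. The level of these 7 genes is therefore not known from this table, and no change is given for any of them.

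**Figure D1:**
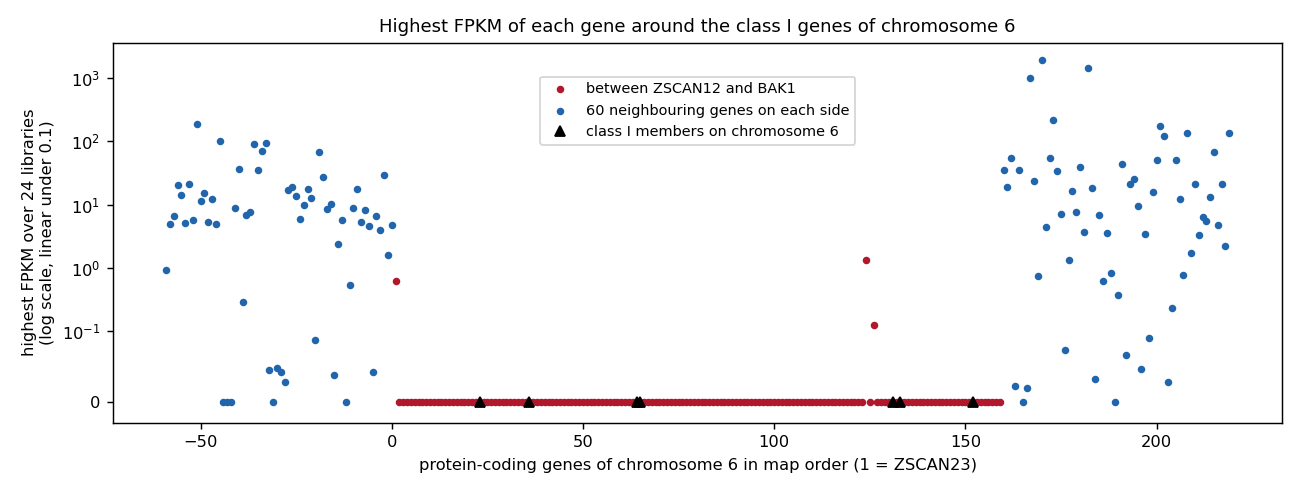
Highest FPKM over the 24 libraries (log axis, linear under 0.1) for each protein-coding gene in map order on chromosome 6, from ZSCAN23 to ZBTB9 (red) and for 60 genes on each side (blue). Black triangles mark HLA-F, HLA-E, HLA-C, HLA-B, TAP2, TAP1 and TAPBP, which sit at 0 among the 156 of 159 red genes that do.

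B2M encodes the light chain shared by all classical class I molecules, and it was among the most abundant transcripts of both lines. It was higher under OT than under DMSO in both lines and both genotypes, by 1.42-fold to 2.64-fold in mean FPKM. The increase was larger in HCC4006 than in PC9, and within HCC4006 it was larger in YAP1 KO than in CTRL cells. Under DMSO, no difference between YAP1 KO and CTRL cells passed the test in either line. In RNA pooled from many cells, a change in every cell and a change in the share of cells that express a gene cannot be told apart.

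In HCC4006, B2M stood at 3530.5, 3506 and 3653 FPKM in YAP1 KO cells under OT and at 1373, 1384 and 1296 FPKM in YAP1 KO cells under DMSO. CTRL cells had 2507, 2825.5 and 2998 FPKM under OT and 1368, 1409 and 1368 FPKM under DMSO. All 6 OT libraries lay above all 6 DMSO libraries, and the 3 YAP1 KO libraries under OT lay above the 3 CTRL libraries under OT. Under DMSO the genotypes overlapped. The group means were 3563 ± 78.9 FPKM in YAP1 KO cells under OT and 1351 ± 48.0 FPKM under DMSO, and 2777 ± 249 and 1382 ± 23.7 FPKM in CTRL cells under OT and DMSO (SD, n = 3 each).

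In PC9, YAP1 KO cells held 1389, 1374 and 1318 FPKM of B2M under OT and 918, 927 and 939 FPKM under DMSO. CTRL cells held 1194, 1266 and 1307 FPKM under OT and 890.3, 852 and 912 FPKM under DMSO. OT and DMSO libraries again did not overlap, and the genotypes stood apart by small margins under each treatment. Means were 1360.3 ± 37.6 FPKM (OT) and 928 ± 10.5 FPKM (DMSO) in YAP1 KO cells, and 1256 ± 57.5 FPKM (OT) and 885 ± 30.2 FPKM (DMSO) in CTRL cells (SD, n = 3 each).

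Changes were tested with limma on log2(FPKM + 1) across all genes that reached FPKM 1 in 3 or more libraries of the fit. Calls were made at an adjusted p under 0.05 (Benjamini-Hochberg over all genes tested). With a pseudocount of 1, log2 changes of low genes are understated. For OT against DMSO the B2M log2 change was 1.40 in HCC4006 YAP1 KO cells (SE 0.0666, limma adjusted p = 9.63e-10) and 1.00 in HCC4006 CTRL cells (SE 0.0666, limma adjusted p = 2.75e-08). In PC9 it was 0.55 in YAP1 KO cells (SE 0.0347, limma adjusted p = 1.77e-08) and 0.50 in CTRL cells (SE 0.0347, limma adjusted p = 6.15e-08). Such calls were common. OT raised 46.4% and lowered 36.5% of the 13113 genes tested in HCC4006 YAP1 KO cells, and raised 45.0% and lowered 36.6% in HCC4006 CTRL cells. In PC9 the shares of 12685 genes were 36.9% and 41.4% in YAP1 KO cells, and 32.0% and 40.9% in CTRL cells. Since most genes were called, the changes of the members are given beside the median of all genes. The median change over all genes tested was 0.106 in HCC4006 YAP1 KO cells, 0.0872 in HCC4006 CTRL cells, -0.0237 in PC9 YAP1 KO cells and -0.0448 in PC9 CTRL cells.

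Among 25365 rows sorted by FPKM in each library, B2M ranked 9 to 19 in the HCC4006 OT libraries and 65 to 76 in the HCC4006 DMSO libraries. In PC9 it ranked 69 to 85 under OT and 114 to 122 under DMSO. Its transcript thus lay within the 122 highest rows in every library.

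Set against CTRL under OT, YAP1 KO cells had 1.28-fold more B2M in HCC4006, a log2 change of 0.36 (SE 0.0666, limma adjusted p = 0.000973). In PC9 the ratio was 1.08 and the log2 change 0.12 (SE 0.0347, limma adjusted p = 0.0141). The PC9 call did not survive small changes. With median-of-ratios scaling the log2 change was 0.07 (adjusted p = 0.155 by limma), and in a fit of all 24 libraries the adjusted p was 0.0709. It was also lost without replicate 1 of PC9 CTRL under OT (0.08, limma adjusted p = 0.0578) and without replicate 1 of PC9 YAP1 KO under OT (0.10, limma adjusted p = 0.0537). Among all genes, YAP1 KO under OT was higher for 27.2% and lower for 16.4% in HCC4006, and higher for 28.5% and lower for 25.2% in PC9.

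Under DMSO the log2 change of B2M between YAP1 KO and CTRL was -0.03 in HCC4006 (95% interval -0.178 to 0.113, limma adjusted p = 0.796) and 0.07 in PC9 (95% interval -0.00695 to 0.145, limma adjusted p = 0.137). The 3 PC9 YAP1 KO libraries lay above the 3 CTRL libraries although the test was not passed. YAP1 KO under DMSO was called higher for 9.20% and lower for 8.65% of genes in HCC4006, and for 19.8% and 20.0% in PC9.

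**Figure D2:**
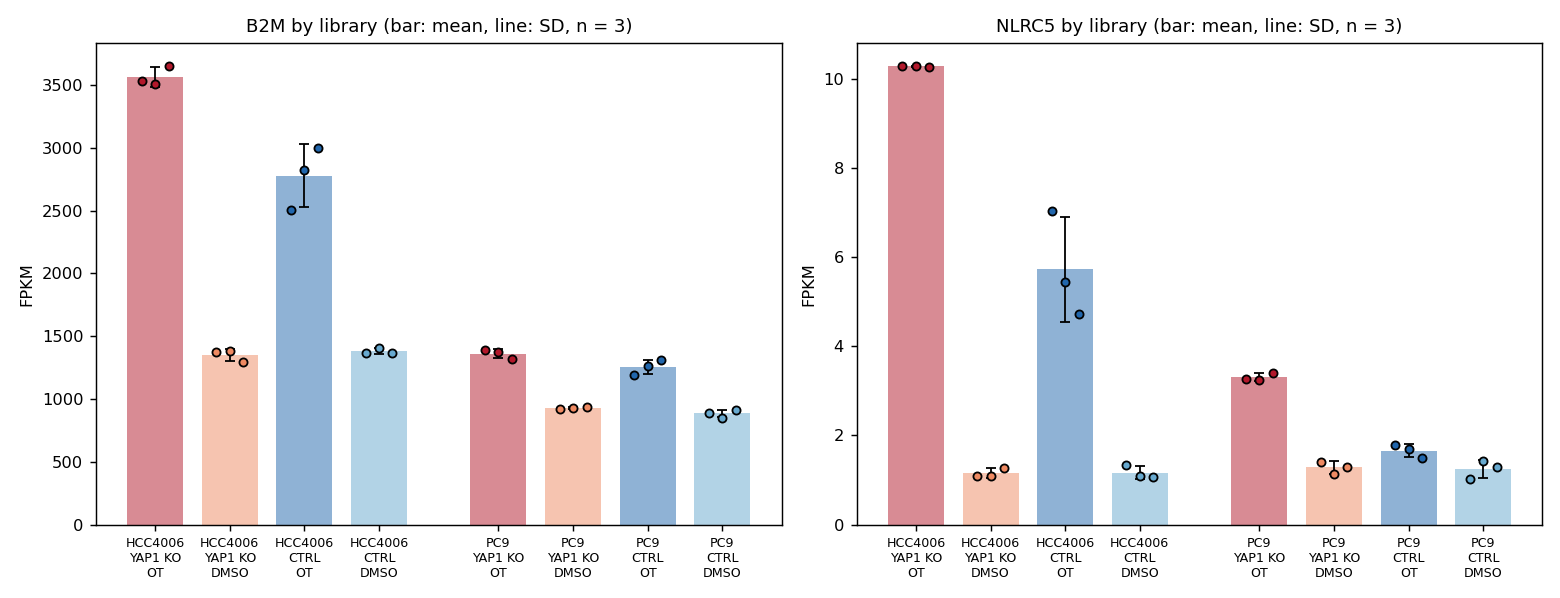
FPKM of B2M (left) and NLRC5 (right) in each of the 24 libraries (points), with the mean of 3 libraries (bars, from 0) and its SD (lines), by line, genotype and treatment. Both genes are highest in HCC4006 YAP1 KO cells under OT, at 3563 FPKM and 10.3 FPKM, and NLRC5 lies between 1.02 and 1.43 FPKM in all 12 DMSO libraries.

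NLRC5, the class I transactivator, was a low transcript that rose under OT in all 4 line and genotype combinations. In mean FPKM the rise was 8.91-fold in HCC4006 YAP1 KO, 4.93-fold in HCC4006 CTRL, 2.58-fold in PC9 YAP1 KO and 1.33-fold in PC9 CTRL cells. YAP1 KO cells under OT had more NLRC5 than CTRL cells under OT in both lines, by 1.79-fold in HCC4006 and 1.99-fold in PC9. Under DMSO the ratios were 0.992 in HCC4006 and 1.03 in PC9 and the genotypes overlapped.

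In HCC4006, YAP1 KO cells had 10.3, 10.3 and 10.3 FPKM of NLRC5 under OT and 1.09, 1.09 and 1.28 FPKM under DMSO. CTRL cells of that line had 7.03, 5.43 and 4.73 FPKM under OT and 1.33, 1.08 and 1.07 FPKM under DMSO. The YAP1 KO libraries under OT were nearly equal, with an SD of 0.0181 FPKM, whereas the CTRL libraries under OT spread with an SD of 1.18 FPKM. No OT library of HCC4006 overlapped a DMSO library.

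In PC9, YAP1 KO cells had 3.27, 3.24 and 3.41 FPKM under OT, against 1.41, 1.14 and 1.29 FPKM under DMSO. PC9 CTRL cells had 1.80, 1.69 and 1.49 FPKM under OT, against 1.02, 1.43 and 1.29 FPKM under DMSO. The 3 CTRL libraries under OT lay just above the CTRL libraries under DMSO, and the YAP1 KO libraries under OT lay clear of all others of the line.

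The log2 change of NLRC5 with OT was 2.39 in HCC4006 YAP1 KO cells (SE 0.103, limma adjusted p = 3.80e-10) and 1.63 in HCC4006 CTRL cells (SE 0.103, limma adjusted p = 1.76e-08). In PC9 it was 0.92 in YAP1 KO cells (SE 0.0769, limma adjusted p = 2.73e-07) and 0.25 in CTRL cells (SE 0.0769, limma adjusted p = 0.0123). The last of these was lost without replicate 1 of PC9 CTRL under DMSO, where it was 0.17 (limma adjusted p = 0.0584). With a pseudocount of 0.1 the changes were 3.05 in HCC4006 YAP1 KO, 2.19 in HCC4006 CTRL, 1.30 in PC9 YAP1 KO and 0.39 in PC9 CTRL cells, so the last moved by more than 1.5 times.

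For YAP1 KO against CTRL under OT, the NLRC5 log2 change was 0.76 in HCC4006 (SE 0.103, limma adjusted p = 0.000109) and 0.69 in PC9 (SE 0.0769, limma adjusted p = 1.31e-05). Under DMSO it was -0.01 in HCC4006 (95% interval -0.230 to 0.220, limma adjusted p = 0.980) and 0.02 in PC9 (95% interval -0.144 to 0.192, limma adjusted p = 0.832).

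The OT response was also compared between genotypes within a line, by subtracting the response of CTRL cells from that of YAP1 KO cells. In HCC4006 this interaction was 0.76 for NLRC5 (SE 0.146, limma adjusted p = 0.00343) and 0.40 for B2M (SE 0.0942, limma adjusted p = 0.0124). In PC9 it was 0.67 for NLRC5 (SE 0.109, limma adjusted p = 0.000815) and 0.05 for B2M (95% interval -0.0604 to 0.154, limma adjusted p = 0.519). A larger OT response of NLRC5 in YAP1 KO cells was thus called in both lines, and that of B2M in HCC4006. Interactions were called higher for 10.5% and lower for 8.18% of genes in HCC4006, and for 13.2% and 13.8% in PC9.

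**Figure D3:**
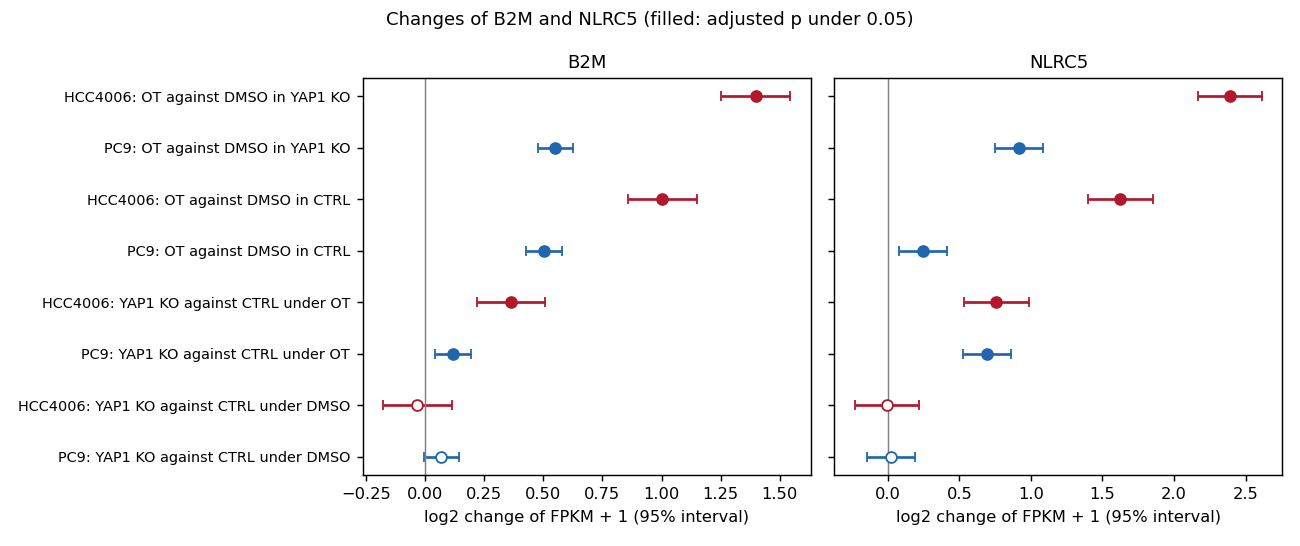
Log2 changes of FPKM + 1 with 95% intervals for B2M (left) and NLRC5 (right), HCC4006 in red and PC9 in blue, filled where the limma adjusted p was under 0.05. OT changes reach 1.40 for B2M and 2.39 for NLRC5 in HCC4006 YAP1 KO cells, and both genotype differences under DMSO lie near 0.

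Lines were compared in 1 fit of the 24 libraries with 13996 genes tested. In CTRL cells under DMSO, HCC4006 had 1.56 times the B2M of PC9, a log2 difference of 0.64 (SE 0.0511, limma adjusted p = 3.18e-10), where 39.2% of genes were called higher in HCC4006. NLRC5 did not differ detectably there (-0.05, 95% interval -0.248 to 0.140, limma adjusted p = 0.593). The OT response of CTRL cells was larger in HCC4006 than in PC9 by 0.50 for B2M (SE 0.0722, limma adjusted p = 5.50e-06) and by 1.38 for NLRC5 (SE 0.131, limma adjusted p = 1.90e-08), beside 39.3% of genes called in that direction. In YAP1 KO cells the differences were 0.85 for B2M (limma adjusted p = 3.35e-09) and 1.47 for NLRC5 (limma adjusted p = 6.46e-09), beside 39.9% of genes.

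The difference between YAP1 KO and CTRL under OT was 0.25 larger in HCC4006 than in PC9 for B2M (SE 0.0722, limma adjusted p = 0.00925), with 24.4% of genes called in that direction. That call was lost with upper-quartile scaling (0.18, limma adjusted p = 0.0601) and with only the 4 groups of the comparison in the fit (limma adjusted p = 0.0605). For NLRC5 the same difference was 0.06 (95% interval -0.210 to 0.339, limma adjusted p = 0.724). Under DMSO the line difference of the genotype effect was -0.10 for B2M (95% interval -0.253 to 0.0492, limma adjusted p = 0.318) and -0.03 for NLRC5 (95% interval -0.303 to 0.245, limma adjusted p = 0.900), where 29.4% of genes were called in either direction.

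Ordered from low to high, B2M ran from PC9 CTRL under DMSO through PC9 YAP1 KO under DMSO to PC9 CTRL under OT, each apart from the group below. HCC4006 YAP1 KO under DMSO, PC9 YAP1 KO under OT and HCC4006 CTRL under DMSO followed and each overlapped the group below it. HCC4006 CTRL under OT and HCC4006 YAP1 KO under OT were apart at the top. The PC9 YAP1 KO libraries under OT thus overlapped those of both HCC4006 genotypes under DMSO. For NLRC5 the 4 DMSO groups overlapped as neighbours, followed by PC9 CTRL, PC9 YAP1 KO, HCC4006 CTRL and HCC4006 YAP1 KO under OT, each apart from the one below.

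By a likeness rule, genes were ranked by the Pearson r of their 8 line-centred group means with the mean pattern of the 9 members, which the 7 at 0 leave to B2M and NLRC5. Among 5063 candidates the 5 highest were TNRC6C-AS1 (r = 0.998), LRRC24 (0.997), INTS3, an Integrator subunit (0.997), ENTPD8, an ectonucleotidase (0.997), and RAB24, a small GTPase (0.997). B2M and NLRC5 had r = 0.977 with each other. These values are descriptions over 8 group means that share the same libraries. TNRC6C-AS1 is an antisense transcript by name, and whether reads were counted by strand is not stated in the sources used here, so reads of the opposite gene may be included. ENTPD8 averaged 10.7 FPKM under OT and 0.521 FPKM under DMSO in HCC4006 YAP1 KO cells.

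Of the 5 immunoproteasome and activator genes, which tune the proteasome to make class I peptides, PSMB8 and PSMB9 lie in the same stretch and were listed at 0. The other 3 were tested. PSMB10, the inducible catalytic subunit MECL-1, rose with OT in both lines and genotypes. It averaged 173 ± 4.86 FPKM under OT and 20.9 ± 2.06 FPKM under DMSO in HCC4006 YAP1 KO cells, a log2 change of 2.99. In HCC4006 CTRL cells it averaged 135 ± 17.6 FPKM under OT and 26.4 ± 3.06 FPKM under DMSO, a change of 2.31. In PC9 the means were 80.7 FPKM (OT) and 31.1 FPKM (DMSO) in YAP1 KO cells, and 75.2 FPKM (OT) and 37.1 FPKM (DMSO) in CTRL cells, changes of 1.35 and 1.00 (SD, n = 3 throughout).

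PSME1, a subunit of the PA28 proteasome activator, rose by 1.40 in HCC4006 YAP1 KO and 1.08 in HCC4006 CTRL cells, and by 0.52 in PC9 YAP1 KO and 0.44 in PC9 CTRL cells. PSME2, its partner subunit, rose by 0.22 in HCC4006 YAP1 KO cells and fell by 0.22 in PC9 YAP1 KO cells, and had 0.02 in HCC4006 CTRL and -0.05 in PC9 CTRL cells, which were not called. The promoter stretches of PSMB10, PSME1 and PSME2 were printed because they hold the interferon element. It was found in 4 of the 5 genes of the list, against 4.38% of all genes, and its link to these changes was not tested. The PSME2 call in HCC4006 was lost with median-of-ratios scaling (0.05, limma adjusted p = 0.540).

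All 3 standard catalytic subunits, PSMB5, PSMB6 and PSMB7, which the inducible ones replace, fell in each of the 4 OT comparisons. The share of all genes lowered in all 4 was not counted. OT lowered 36.5% of all genes in HCC4006 YAP1 KO, 36.6% in HCC4006 CTRL, 41.4% in PC9 YAP1 KO and 40.9% in PC9 CTRL cells. In HCC4006 YAP1 KO cells PSMB5 fell by 1.09, PSMB6 by 0.69 and PSMB7 by 0.66. In HCC4006 CTRL cells PSMB5 fell by 0.96, PSMB6 by 0.74 and PSMB7 by 0.62. In PC9 the largest of the decreases was that of PSMB5 in YAP1 KO cells, which fell by 0.28. There the PSMB6 and PSMB7 calls in CTRL cells were lost under each of 3 other scalings, and PSMB7 had a positive sign under upper-quartile scaling (0.00648). In PC9 YAP1 KO cells the PSMB7 call was lost with equal library sums (-0.00795, limma adjusted p = 0.770) and with upper-quartile scaling (-0.03, limma adjusted p = 0.315).

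Peptide loading and trimming genes were mixed. Of 10 tested, 4 rose and 3 fell with OT in HCC4006 YAP1 KO cells, 5 and 3 in HCC4006 CTRL cells, 6 and 3 in PC9 YAP1 KO cells and 6 and 3 in PC9 CTRL cells, with list medians of -0.06, 0.07, 0.25 and 0.24. Of all genes, 46.4% rose and 36.5% fell in HCC4006 YAP1 KO cells, 45.0% and 36.6% in HCC4006 CTRL cells, 36.9% and 41.4% in PC9 YAP1 KO cells and 32.0% and 40.9% in PC9 CTRL cells. In HCC4006 the counts of the list lay near these shares. With median-of-ratios scaling 6 of the 10 fell in HCC4006 YAP1 KO cells and 5 in HCC4006 CTRL cells. TAPBPL (TAPBPR), a tapasin relative that edits peptides, rose by 2.65 in HCC4006 YAP1 KO and 2.25 in HCC4006 CTRL cells, and by 1.34 in PC9 YAP1 KO and 1.07 in PC9 CTRL cells. Its level in HCC4006 YAP1 KO cells was 47.8 ± 2.02 FPKM under OT and 6.78 ± 0.620 FPKM under DMSO (n = 3 each). ERAP1, the trimming aminopeptidase, rose by 1.66 in HCC4006 YAP1 KO and 1.44 in HCC4006 CTRL cells, and by 0.42 in PC9 YAP1 KO and 0.26 in PC9 CTRL cells. PDIA6, a disulfide isomerase, fell by 1.07 in HCC4006 YAP1 KO and 0.84 in HCC4006 CTRL cells, and fell by 0.59 in PC9 YAP1 KO and 0.40 in PC9 CTRL cells. HSPA5, the chaperone BiP, had -0.04 in HCC4006 YAP1 KO cells, where it was not called, and rose by 0.34 in HCC4006 CTRL, 0.61 in PC9 YAP1 KO and 0.54 in PC9 CTRL cells. Called the same way in all 4 OT comparisons were 3 higher (TAPBPL, ERAP1 and ERP44) and 2 lower (PDIA6 and UGGT1). The share of all genes called the same way in all 4 was not counted. Under at least 1 other scaling the UGGT1 call was lost in 3 of the 4 and the ERP44 call in HCC4006 CTRL cells.

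Transcription factors of the interferon branch rose in most cases. OT raised 7 of 8 tested in HCC4006 YAP1 KO, HCC4006 CTRL and PC9 YAP1 KO cells and 6 of 8 in PC9 CTRL cells, where 1 fell. Of all genes, OT raised 46.4% in HCC4006 YAP1 KO, 45.0% in HCC4006 CTRL, 36.9% in PC9 YAP1 KO and 32.0% in PC9 CTRL cells. In PC9 CTRL cells it lowered 40.9%. The list medians were 1.54 in HCC4006 YAP1 KO, 1.32 in HCC4006 CTRL, 1.11 in PC9 YAP1 KO and 0.80 in PC9 CTRL cells. The 5 raised in all 4 comparisons were IRF1, IRF2, IRF9, STAT2 and STAT3. The share of all genes raised in all 4 was not counted, so this count has no measure beside it. IRF1, which binds GAAA-rich elements, had 23.2 FPKM under OT and 5.43 FPKM under DMSO in HCC4006 YAP1 KO cells, a log2 change of 1.92. In HCC4006 CTRL cells it had 18.9 FPKM under OT and 6.93 FPKM under DMSO, a change of 1.33. In PC9 its changes were 1.87 in YAP1 KO and 1.29 in CTRL cells. STAT2 and IRF9, partners in the complex ISGF3, both rose in all 4. STAT2 rose by 2.01 in HCC4006 YAP1 KO, 1.81 in HCC4006 CTRL, 1.58 in PC9 YAP1 KO and 1.14 in PC9 CTRL cells. IRF9 rose by 1.89 in HCC4006 YAP1 KO, 1.55 in HCC4006 CTRL, 1.57 in PC9 YAP1 KO and 1.13 in PC9 CTRL cells. STAT3 rose by 1.33 in both HCC4006 genotypes and by 1.12 in PC9 YAP1 KO and 0.87 in PC9 CTRL cells.

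Of 12 factors of the class I enhanceosome and of NF-kappaB, 10 rose and 2 fell with OT in each HCC4006 genotype. In PC9, 7 rose and 3 fell in YAP1 KO cells and 5 rose and 3 fell in CTRL cells. The counts in HCC4006 moved with scaling, to 7 higher in YAP1 KO cells and 9 in CTRL cells under median-of-ratios scaling. The shares of all genes raised were those given for the interferon branch. OT lowered 36.5% of all genes in HCC4006 YAP1 KO, 36.6% in HCC4006 CTRL, 41.4% in PC9 YAP1 KO and 40.9% in PC9 CTRL cells. The PC9 counts of this short list are not read as differing from these shares. List medians were 0.42 in HCC4006 YAP1 KO, 0.33 in HCC4006 CTRL, 0.12 in PC9 YAP1 KO and -0.01 in PC9 CTRL cells. RFX5, the RFX subunit that works with NLRC5, averaged 50.2 ± 0.589 FPKM under OT and 8.86 ± 0.249 FPKM under DMSO in HCC4006 YAP1 KO cells. In HCC4006 CTRL cells it averaged 32.1 ± 2.18 FPKM under OT and 8.95 ± 0.277 FPKM under DMSO (n = 3 each). Its log2 changes were 2.38 in HCC4006 YAP1 KO, 1.73 in HCC4006 CTRL, 0.74 in PC9 YAP1 KO and 0.44 in PC9 CTRL cells. RELB and NFKB2, partners in the non-canonical NF-kappaB pathway, also rose in all 4. RELB rose by 1.69 in HCC4006 YAP1 KO, 1.19 in HCC4006 CTRL, 1.44 in PC9 YAP1 KO and 0.55 in PC9 CTRL cells. NFKB2 rose by 1.43 in HCC4006 YAP1 KO, 1.36 in HCC4006 CTRL, 1.20 in PC9 YAP1 KO and 1.15 in PC9 CTRL cells. RELA, of the canonical pathway, rose by 0.54 in HCC4006 YAP1 KO, 0.70 in HCC4006 CTRL, 0.36 in PC9 YAP1 KO and 0.21 in PC9 CTRL cells. ATF1, of the CREB/ATF family, fell in all 4, by 0.29 in HCC4006 YAP1 KO, 0.30 in HCC4006 CTRL, 0.33 in PC9 YAP1 KO and 0.28 in PC9 CTRL cells. With equal library sums its HCC4006 calls were lost, at -0.11 in YAP1 KO cells (limma adjusted p = 0.147) and -0.09 in CTRL cells (limma adjusted p = 0.217).

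Among interferon receptors and kinases, 7 of 10 tested rose in both HCC4006 genotypes, 6 in PC9 YAP1 KO cells and 3 in PC9 CTRL cells. In PC9 YAP1 KO cells 2 fell, and in each of the other groups 1 fell. Among all genes tested, OT raised 46.4% in HCC4006 YAP1 KO, 45.0% in HCC4006 CTRL, 36.9% in PC9 YAP1 KO and 32.0% in PC9 CTRL cells. The shares lowered were 36.5%, 36.6%, 41.4% and 40.9% in the same order. The 3 raised in PC9 CTRL cells lay near the share of all genes. The PC9 CTRL count was 5 or 6 under the other scalings. Medians were 0.52 in HCC4006 YAP1 KO, 0.46 in HCC4006 CTRL, 0.24 in PC9 YAP1 KO and 0.16 in PC9 CTRL cells. JAK1 and IL10RB, a receptor chain used by lambda interferons, rose in all 4 comparisons. JAK1 rose by 0.99 in HCC4006 YAP1 KO, 0.76 in HCC4006 CTRL, 0.76 in PC9 YAP1 KO and 0.51 in PC9 CTRL cells. IL10RB rose by 1.13 in HCC4006 YAP1 KO, 0.88 in HCC4006 CTRL, 0.92 in PC9 YAP1 KO and 0.47 in PC9 CTRL cells. IFNAR2, a chain of the type I receptor, rose by 0.63 in HCC4006 YAP1 KO, 0.73 in HCC4006 CTRL and 0.26 in PC9 YAP1 KO cells, and had 0.18 in PC9 CTRL cells. SOCS1, an inhibitor of JAK kinases, rose by 0.32 in HCC4006 YAP1 KO and 0.82 in HCC4006 CTRL cells, fell by 0.27 in PC9 YAP1 KO cells and had 0.11 in PC9 CTRL cells. Its calls in YAP1 KO cells of both lines were lost under at least 1 other scaling.

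Of the interferons themselves, IFNG, IFNL2 and IFNL3 were listed at 0 in every library, and IFNB1 and IFNL1 reached at most 0.193 and 0.149 FPKM in 5 and 3 libraries. IFNE, an interferon of epithelia, was above 0 in all 24 libraries, at up to 5.05 FPKM. It was the only ligand of the list tested, in HCC4006, where it fell by 1.19 in YAP1 KO and 0.92 in CTRL cells with OT.

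Class I-like genes divided. In HCC4006, 4 of 7 tested rose with OT in both genotypes and 3 (YAP1 KO) or 2 (CTRL) fell. In PC9, 3 of 6 rose in both genotypes and 1 (YAP1 KO) or 2 (CTRL) fell. Shares of all genes raised and lowered were 46.4% and 36.5% in HCC4006 YAP1 KO and 45.0% and 36.6% in HCC4006 CTRL cells. In PC9 they were 36.9% and 41.4% in YAP1 KO and 32.0% and 40.9% in CTRL cells. The counts of this short list are not read as differing from these shares. Medians were 0.69 in HCC4006 YAP1 KO, 0.75 in HCC4006 CTRL, 0.15 in PC9 YAP1 KO and 0.06 in PC9 CTRL cells. FCGRT, the heavy chain of the neonatal Fc receptor and a partner of beta-2 microglobulin, rose by 2.43 in HCC4006 YAP1 KO, 2.13 in HCC4006 CTRL, 0.88 in PC9 YAP1 KO and 0.90 in PC9 CTRL cells. MR1, which also pairs with beta-2 microglobulin and presents microbial metabolites, rose by 1.81 in HCC4006 YAP1 KO, 1.46 in HCC4006 CTRL, 0.39 in PC9 YAP1 KO and 0.22 in PC9 CTRL cells. ULBP2, a ligand of the NKG2D receptor of NK cells, fell in all 4. It averaged 5.99 FPKM under OT and 20.6 FPKM under DMSO in HCC4006 YAP1 KO cells, and 12.1 FPKM under OT and 23.2 FPKM under DMSO in HCC4006 CTRL cells. ULBP1, another such ligand, was tested in HCC4006 and rose by 1.03 in YAP1 KO and 0.91 in CTRL cells. HLA-G, MICA and MICB, which lie in the chromosome 6 stretch, were listed at 0.

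For the class II pathway, 7 of 11 genes were listed at 0 in every library. All 7 lie in the chromosome 6 stretch, so their level is not known. CD74, the invariant chain, averaged 376 ± 6.71 FPKM under OT and 55.4 ± 1.56 FPKM under DMSO in HCC4006 YAP1 KO cells, and 209 ± 3.71 FPKM under OT and 52.6 ± 0.191 FPKM under DMSO in HCC4006 CTRL cells (n = 3 each). Its OT changes were 2.74 in HCC4006 YAP1 KO, 1.97 in HCC4006 CTRL, 0.72 in PC9 YAP1 KO and 0.40 in PC9 CTRL cells. CTSS, the protease that cuts the invariant chain, rose by 4.45 in HCC4006 YAP1 KO, 3.46 in HCC4006 CTRL, 1.41 in PC9 YAP1 KO and 0.96 in PC9 CTRL cells. CIITA, the class II counterpart of NLRC5, was tested in HCC4006 and rose by 0.97 in YAP1 KO and 0.29 in CTRL cells. Its means under OT were 1.44 FPKM in YAP1 KO cells and 0.535 FPKM in CTRL cells. In HCC4006 its mean was at least FPKM 1 only in YAP1 KO cells under OT. It thus passed the filter through the group where it was highest, so its rise there is a description and not a test.

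**Figure D4:**
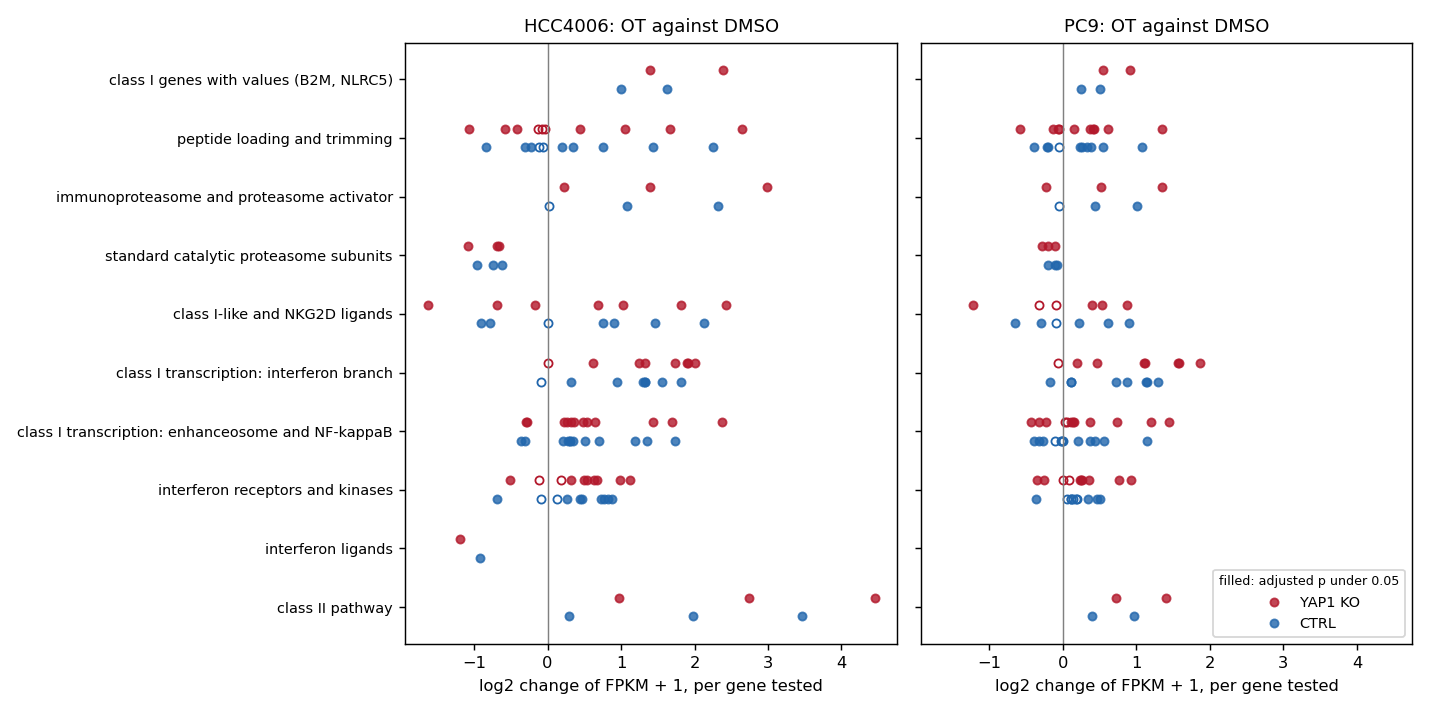
Log2 change of FPKM + 1 with OT against DMSO for every tested gene of each list (1 point per gene), HCC4006 left and PC9 right, YAP1 KO in red above CTRL in blue, filled where the limma adjusted p was under 0.05. The immunoproteasome and interferon branch genes lie mostly right of 0, and the 3 standard catalytic subunits lie left of 0 in all 4 sets.

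Genes of these lists were also compared between YAP1 KO and CTRL cells under OT. In HCC4006, 3 of 8 interferon branch factors were higher in YAP1 KO cells and the other 5 were not called, and 4 of 12 enhanceosome and NF-kappaB factors were higher and 2 lower. In PC9, 3 of 8 interferon branch factors were higher and 5 were not called, and 5 of 12 enhanceosome and NF-kappaB factors were higher and 3 lower. Of all genes tested, 27.2% were higher and 16.4% lower in HCC4006, and 28.5% were higher and 25.2% lower in PC9, and the counts of these short lists are not read as differing from that. The PC9 interferon branch count was 2 of 8 with median-of-ratios scaling and 5 of 8 with equal sums. In HCC4006, 1 interferon branch factor was called lower with median-of-ratios and with upper-quartile scaling. RFX5 was higher by 0.63 in HCC4006 and 0.30 in PC9, and IRF1 by 0.28 in HCC4006 and 0.20 in PC9. CD74 was higher by 0.84 in HCC4006 and 0.81 in PC9. RELB was higher by 1.05 in PC9 and had 0.18 in HCC4006, which was not called. PSMB10 was higher by 0.36 in HCC4006 and had 0.10 in PC9, which was not called. ULBP2 had -0.90 in HCC4006 and -0.53 in PC9, both called lower. TAPBPL was higher by 0.49 in PC9 and by 0.24 in HCC4006, where the call was lost with median-of-ratios scaling (0.18, limma adjusted p = 0.0617) and with upper-quartile scaling (0.17, limma adjusted p = 0.0707).

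Under DMSO, 3 of 8 interferon branch factors were lower in YAP1 KO than in CTRL cells of HCC4006 and 5 of 8 in PC9, and the others were not called. Of all genes, 8.65% were lower in HCC4006 and 20.0% in PC9. IRF1 had -0.30 in HCC4006 and -0.38 in PC9, both called lower. CTSS was called lower in HCC4006, with 0.203 FPKM in YAP1 KO cells and 1.23 FPKM in CTRL cells. CD74 was higher by 0.49 in PC9 and had 0.07 in HCC4006, which was not called.

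Markers of the epithelium and of other cell types were summed in each library, and the sums were not tested. Epithelial markers, none of which was at 0, summed in HCC4006 to 3053 to 3106 FPKM in YAP1 KO cells under OT and 4893 to 5177 FPKM under DMSO, and to 4301 to 4663 FPKM in CTRL cells under OT and 6038 to 6388 FPKM under DMSO. In PC9 the sums were 7764 to 7989 FPKM in YAP1 KO cells under OT and 5874 to 6051 FPKM under DMSO, and 9288 to 9582 FPKM in CTRL cells under OT and 6495 to 6643 FPKM under DMSO. The sums under OT were thus below those under DMSO in HCC4006 and above them in PC9, without overlap. The highest single value was that of KRT7 in both lines, 2894 FPKM in PC9 and 3440 FPKM in HCC4006. A sum need not show each marker. With OT in PC9 CTRL cells, 5 of 6 epithelial markers were called higher and 1 lower, beside 32.0% and 40.9% of all genes. In PC9 YAP1 KO cells 4 were called higher and 2 lower, beside 36.9% and 41.4% of all genes. Fibroblast markers, led by COL1A2, summed in HCC4006 to 7.29 to 7.71 FPKM in YAP1 KO cells under OT and 2.37 to 2.66 FPKM under DMSO, and to 19.3 to 20.5 FPKM in CTRL cells under OT and 3.50 to 3.84 FPKM under DMSO. Endothelial markers, led by KDR, summed there to 4.61 to 5.40 FPKM in YAP1 KO cells under OT and 0.224 to 0.279 FPKM under DMSO, and to 5.33 to 6.70 FPKM in CTRL cells under OT and 0.333 to 0.477 FPKM under DMSO. The leukocyte markers, led by CD14 and with CD2 at 0 in every library, summed there to 2.16 to 2.59 FPKM in YAP1 KO cells under OT and 1.09 to 1.33 FPKM under DMSO, and to 1.32 to 2.08 FPKM in CTRL cells under OT and 0.572 to 1.24 FPKM under DMSO. All 3 of these sums were higher under OT within each HCC4006 genotype, without overlap. In each HCC4006 genotype under OT, 4 of 6 fibroblast, 4 of 5 endothelial and 5 of 6 leukocyte markers averaged under 1 FPKM. The highest single values in HCC4006 were 15.98 FPKM (COL1A2), 5.81 FPKM (KDR) and 2.43 FPKM (CD14). The sums thus do not show that whole marker sets rose. In PC9 libraries the 3 sums reached at most 2.71 FPKM (fibroblast), 1.16 FPKM (endothelial) and 0.660 FPKM (leukocyte). The part of these marker levels in the results was not tested.

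Library sums of FPKM ran from 507120 to 660459, and relative depth, read from the smallest steps between low FPKM values, from 0.946 to 1.41. Absolute depth is unknown. Rescaling every library to the same sum moved the median OT change of all genes in HCC4006 to 0.279 in both genotypes, and median-of-ratios scaling moved it to -0.0377 in YAP1 KO cells and -0.0247 in CTRL cells. Relative to that median, the B2M change was 1.29 in YAP1 KO and 0.92 in CTRL cells with the deposited scaling, 1.32 and 0.95 with equal sums, and 1.27 and 0.90 with median-of-ratios scaling. The split of all calls moved with scaling as well. The share of called genes that were higher was 55.1% for OT in HCC4006 CTRL cells and 66.6% with equal sums, and 51.5% for YAP1 KO under DMSO in HCC4006 and 61.7% with equal sums. For YAP1 KO under OT it was 62.3% in HCC4006, 50.5% with median-of-ratios and 48.6% with upper-quartile scaling, and 53.0% in PC9 with 42.6% under median-of-ratios scaling. For the interaction it was 56.1% in HCC4006, 45.8% and 45.2% under median-of-ratios and upper-quartile scaling, and 48.9% in PC9 with 60.7% under equal sums. For the line difference of the OT response it was 61.8% in YAP1 KO cells with 46.4% under median-of-ratios scaling, and 60.2% in CTRL cells with 47.4% under median-of-ratios scaling and 72.5% with equal sums. For the line difference of the YAP1 KO effect under OT it was 57.6%, and 46.0% under upper-quartile scaling.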

How the data were processed

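The authors deposited 1 table of FPKM with 25365 gene rows named by symbol and 1 column per library. Libraries were stranded mRNA from TRIzol extracts, per the labels' protocols. STAR 2.5.1b, Cufflinks 2.2.1, DESeq2 1.10.1 and the builds hg19 and GRCh37 are named, without roles, per the submitters' processing notes, and the sources used here name no annotation. A transcript's share of a library sets its FPKM, so a change in a few abundant genes moves all others. Columns were matched to samples by their titles. All were mapped. Symbols were used as deposited.

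Tests used limma 3.58.1 (R 4.3.3) with an intensity trend on log2(FPKM + 1), after a filter of FPKM of at least 1 in at least 3 libraries of the fit, with 4 group means per line, or 8 in the fit across lines. Benjamini-Hochberg adjustment ran over all genes tested. The fits were tested on simulated data. Members and gene lists were chosen with earlier results of these data known. From each list the text names up to 4 genes of largest OT change in CTRL cells among those called in at least 1 line, lists of 5 or fewer whole, the 9 members and YAP1. ERP44, UGGT1, IRF2 and ATF1, which complete short counts, were named after their values were seen. Alternatives were 2 other pseudocounts, 2 filters, 3 scalings, other sets of libraries in the fit, a replicate block and leaving out each library. Tables were read with Python 3.11.15 and pandas 2.3.3.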

Additional observations from a re-analysis of the deposited data

Results flagged for a closer look

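The OT response differed between genotypes for NLRC5 in both lines and for B2M in HCC4006. NLRC5 responded more in YAP1 KO than in CTRL cells, by 0.76 in HCC4006 (limma adjusted p = 0.00343) and by 0.67 in PC9 (limma adjusted p = 0.000815), all on the log2(FPKM + 1) scale, with the 3 YAP1 KO libraries under OT above the 3 CTRL libraries under OT in each line. B2M did so by 0.40 in HCC4006 (limma adjusted p = 0.0124). In PC9 the difference for B2M was 0.05 and was not called (limma adjusted p = 0.519).

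Effects also differed between the lines. The OT response in HCC4006 exceeded that in PC9 by 0.50 for B2M and by 1.38 for NLRC5 in CTRL cells, and by 0.85 and 1.47 in YAP1 KO cells. The difference of B2M between YAP1 KO and CTRL cells under OT was 0.25 larger in HCC4006 than in PC9 (limma adjusted p = 0.00925). This last call was lost with upper-quartile scaling (limma adjusted p = 0.0601) and with only the groups of the comparison in the fit.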

How the results depend on the processing

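The number of members called higher was 2 for OT in each line and genotype and for YAP1 KO against CTRL under OT in each line. With a filter at FPKM 5, NLRC5 was no longer tested in PC9, so the number was 1 for OT in CTRL cells, 1 for OT in YAP1 KO cells, 1 for YAP1 KO under OT and 0, in place of 1, for the interaction. For YAP1 KO under OT in PC9 it was 1 with median-of-ratios scaling and 1 in the fit of 24 libraries. For the line difference of that effect it was 0, in place of 1, with upper-quartile scaling and with only the groups of the comparison in the fit. The cause was not tested. Leaving out 1 library gave 1 to 2 for OT in PC9 CTRL cells and 1 to 2 for YAP1 KO under OT in PC9. No member changed direction with a call under any setting run. The all-gene count for OT higher in HCC4006 was 4048 in YAP1 KO cells and 3917 in CTRL cells with the filter at FPKM 5, which tests fewer genes, and 6081 in YAP1 KO cells and 5896 in CTRL cells with the filter at FPKM 1.

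The replicate block changed no call of B2M or NLRC5. With it, NLRC5 for OT in PC9 CTRL cells had an adjusted p of 0.0235 (limma) at the same log2 change of 0.25. Deviations of same-numbered libraries from their group means had correlations of -0.264 to 0.161 in PC9 and -0.150 to 0.236 in HCC4006. Of 18 such pairs per line, 3 in PC9 and 5 in HCC4006 were over 0.1. By this measure 4 of 12 PC9 and 7 of 12 HCC4006 libraries were closest to their own number. Whether such libraries deviate together was not tested. No label says that they shared a day, so no pairing was used in the main fit.

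The ratio of heavy chain to B2M FPKM, and its alternative with HLA-B and HLA-C alone, were not run, since all 4 heavy chains were listed at 0. Depth is unknown, so no counting interval can be given, and NLRC5 near 1 FPKM under DMSO is the value most exposed to it.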
